A study of Mus musculus with 24 samples.

Results

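The comparison described here is the step from 6 hours to Day 1 after induction of C2C12 cells to differentiate. C2C12 is a line of mouse skeletal myoblasts, so all values come from 1 cultured line and not from muscle. The series holds 24 arrays, 3 at each of 8 time points (Day -1 is the first and Day 5 the last), and the comparison uses the 6 arrays whose labels name 6 hours (3 arrays) and Day 1 (3 arrays). By the labels, all cells grew in high-glucose DMEM with 10% serum, and from induction on they were kept in a low-serum medium (2%, with fresh medium every 2 days). The arrays of Day -1 and Day 0 are labelled as myoblasts, and those of 6 hours and later as myotube differentiation. The study's methods give another concentration for the reduced serum, and the sources used here do not settle which was used. Cultures were labelled as 50% confluent on Day -1 and 90% confluent on Day 0, the day of induction. No genotype, clone or drug distinguishes the groups. Whether the 3 arrays of a time point represent separate cultures is not given by the labels. A p-value here therefore measures the spread between arrays, which may be technical.

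Myoblasts that lose mitogens leave the cell cycle, switch on myogenin, and then make the contractile apparatus and fuse into multinucleate myotubes. The basic helix-loop-helix factors MyoD and Myf5 mark the myoblast before this switch, whereas the Id proteins, which bind their E-protein partners, hold it back. Cells moved to fresh medium also adjust growth programmes such as amino acid supply, sterol synthesis and ribosome production, which are run by ATF4, the SREBP factors and RNA polymerase I respectively.

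The level of a probe set is its deposited intensity, a linear value normalized by the authors and scaled so that the trimmed mean of each array is close to 150. The 2 time points were compared on the log2 scale with limma over the 12443 probe sets whose mean reached at least 100 at either time point, and 0.05 after Benjamini-Hochberg adjustment was the threshold below which a gene is said to have risen or fallen. Where a gene has several probe sets, the one with the largest moderated t in absolute size was used, and the number after ID is its identifier in Entrez Gene. Values in the text are the 3 arrays in the order of their replicate numbers, and a value with ± is a log2 fold change (Day 1 over 6 hours) and its SE, with n = 3 arrays at each time point, unless it is said to be a mean ± SD. In a bulk culture, fewer cells of a type and less RNA per cell cannot be told apart. With 3 arrays on each side the smallest p that exact permutation allows is 0.1, and for this reason limma alone was used for single genes.

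One array stood apart. Among the probe sets tested, Pearson's r between arrays of 6 hours lay between 0.968 and 0.994, between arrays of Day 1 it lay between 0.987 and 0.996, and across the 2 time points between 0.940 and 0.972. The lowest value within 6 hours and the highest across the time points (0.972, with Day 1 replicate 1) both belong to 6 hours replicate 2. Counts were therefore also taken without this array. Of 15 markers of skeletal myoblasts and myocytes, 14 had a level of at least 100 at 6 hours and all 15 on Day 1, and their summed level ran from 23522 to 26381 at 6 hours and from 35905 to 43541 on Day 1. A sum is weighted toward the highest transcripts. Of the 15, 7 rose, 0 fell and 8 did neither, with a median log2 fold change of 0.45, while 12.4% of all tested genes rose. No marker of cardiac muscle, macrophages or endothelium (10 each) reached 100 at either time point. Of the other markers, Cd34 and Dcn reached 100 among 10 of fibroblasts, Pparg and Lpl among 10 of adipocytes, Sox9 among 12 of osteoblasts or chondrocytes, and Acta2, Smtn, Tagln and Synpo2 among 9 of smooth muscle.

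Of the 12443 probe sets, 3217 (25.9%) changed, 1197 upward and 2020 downward. These came to 902 of 7270 genes that rose (12.4%) and 1407 that fell (19.4%), and 3535 genes had an unadjusted p under 0.05. The 3 arrays of each time point did not overlap in 3724 genes (51.2%). Among the called genes this held for 894 of the 902 that rose and all 1407 that fell. Absence of overlap therefore adds little to a call. The rises were fewer but reached further. After quantile normalization the counts were closer, with 1054 genes that rose and 1147 that fell. Several of the largest rises started near the floor of the scale at 6 hours, so their size is uncertain. Of the rising genes 194 changed at least 2-fold, 40 at least 4-fold and 10 at least 8-fold, against 90, 4 and 0 of the falling genes, with a median fold of 1.54 among rising and 1.46 among falling genes. Without 6 hours replicate 2, 1701 of 7300 genes rose (23.3%) and 2406 fell (33%). Of the 902 rising genes 888 were also called then, and of the 1407 falling genes 1402. In the other 5 fits that leave out 1 array the counts were lower. Without 6 hours replicate 1, 367 genes rose and 451 fell, and without its replicate 3, 621 and 846. Leaving out Day 1 replicates 1, 2 and 3 in turn gave 491, 473 and 511 rising and 769, 544 and 735 falling genes. Over all 6 fits, 347 rising and 414 falling genes were called in each. A gene that entered the test only through the time point where it reached 100 tends to differ between the time points, so counts within the gene lists below describe their tested members. The background for each list is the share of all tested genes, 12.4% that rose and 19.4% that fell.

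**Figure D1:**
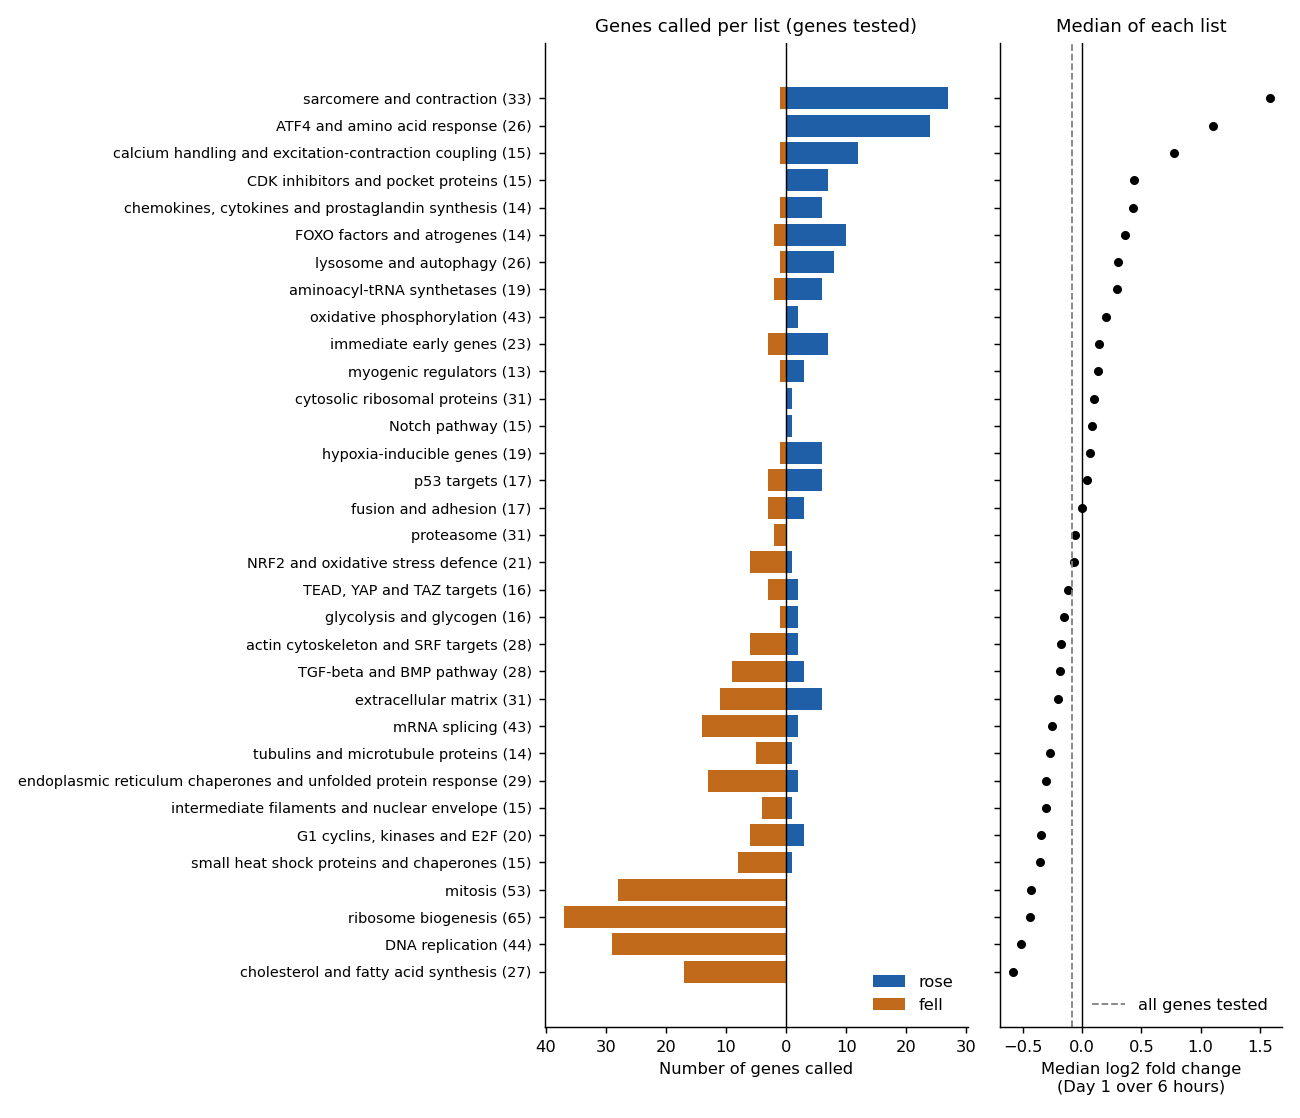
Genes called in each of the lists with at least 13 genes tested. Left, the number of genes that fell (leftward bars) and rose (rightward bars), with the number tested in brackets after the name of the list. Right, the median log2 fold change of the tested members (points) beside the median over all genes tested (dashed line, -0.09). Sarcomere genes (27 of 33 rose) and ATF4 genes (24 of 26 rose) stand at the top, and cholesterol synthesis, DNA replication, ribosome biogenesis and mitosis at the bottom.

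Genes of the ATF4 and amino acid response gave 4 of the 12 largest rises. ATF4 is a transcription factor whose translation increases when uncharged tRNA or unfolded protein leads to phosphorylation of eIF2α, and its targets take up and synthesize amino acids. Of the 33 genes listed, 26 were tested, 24 rose and none fell. Their median log2 fold change was 1.11, against -0.09 over all genes tested. Over the 26 genes, the median level of an array was 412, 371 and 428 at 6 hours and 728, 721 and 1038 on Day 1. Between 21 (without 6 hours replicate 1) and 24 (without 6 hours replicate 2) of them rose when 1 array was left out.

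The promoters of 4 of these genes are printed because they hold a short sequence resembling the site at which ATF4 and C/EBP factors bind together, TGATGNAA, searched on both strands with overlaps allowed. The windows run from 250 bases before the gene start to 50 after it, are taken from RefSeq (build GRCm38.p6) and are written 5′ to 3′ on the strand of the gene, with the matching bases in capitals.
Trib3 (chr2:152344011-152344310, minus strand): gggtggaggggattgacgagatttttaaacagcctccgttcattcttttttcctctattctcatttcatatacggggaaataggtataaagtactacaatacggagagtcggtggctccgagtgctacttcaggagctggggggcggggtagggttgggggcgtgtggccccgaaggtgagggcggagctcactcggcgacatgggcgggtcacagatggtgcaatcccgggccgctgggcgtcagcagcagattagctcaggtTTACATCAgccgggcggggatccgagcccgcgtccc
Fgf21 (chr7:45615441-45615740, minus strand): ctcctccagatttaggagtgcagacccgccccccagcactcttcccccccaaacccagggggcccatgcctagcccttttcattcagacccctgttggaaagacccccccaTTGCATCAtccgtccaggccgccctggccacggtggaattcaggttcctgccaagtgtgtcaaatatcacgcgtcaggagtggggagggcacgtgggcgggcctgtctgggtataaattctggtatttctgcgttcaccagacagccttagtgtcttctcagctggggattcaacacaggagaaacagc
Chac1 (chr2:119350992-119351291, plus strand): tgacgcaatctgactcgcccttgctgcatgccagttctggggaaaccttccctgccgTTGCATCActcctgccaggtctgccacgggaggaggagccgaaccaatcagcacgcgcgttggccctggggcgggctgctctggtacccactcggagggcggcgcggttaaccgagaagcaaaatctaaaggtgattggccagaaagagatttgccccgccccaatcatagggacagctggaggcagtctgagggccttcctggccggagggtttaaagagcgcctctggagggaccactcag
Pck2 (chr14:55540016-55540315, plus strand): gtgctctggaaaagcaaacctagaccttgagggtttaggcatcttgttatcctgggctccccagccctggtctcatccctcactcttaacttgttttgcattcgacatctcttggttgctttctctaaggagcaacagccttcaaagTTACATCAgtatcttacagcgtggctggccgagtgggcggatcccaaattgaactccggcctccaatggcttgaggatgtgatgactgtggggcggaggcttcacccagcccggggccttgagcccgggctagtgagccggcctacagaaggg
The match began 139 bases upstream of the gene start in Fgf21, 193 in Chac1 and 103 in Pck2, and 14 bases downstream of it in Trib3. Of the 24 rising genes, 20 had a window in the table and 7 of these (35.0%) held the motif, namely Asns, Chac1, Fgf21, Nupr1, Pck2, Slc1a4 and Trib3. Of all tested genes of the list with a window, called or not, 31.8% held it. The share was 2.65% of 5970 tested genes with a window, 5.69% of 703 rising and 2.38% of 1177 falling genes. A match describes these letters only and is not a site or a cause.

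Fgf21 (ID 56636), a secreted hormone of the fibroblast growth factor family that ATF4 can induce in muscle, measured 3.15, 7.71 and 4.63 at 6 hours and 228, 288 and 363 on Day 1 (log2 fold change 5.90 ± 0.31, adjusted p = 0.000106). Its 6 hours values lie at the floor of the scale, so the size of this change is uncertain and was 2.52 on the log2 scale when values below 50 were raised to 50. Trib3 (ID 228775), a pseudokinase that feeds back on ATF4, measured 12.3, 15.2 and 12.8 at 6 hours and 447, 447 and 674 on Day 1 (log2 fold change 5.26 ± 0.18, adjusted p = 2.54e-05). It too was near the floor at 6 hours in all 3 arrays and above 400 in all 3 on Day 1, a change of 3.36 with low values raised. Chac1 (ID 69065), which degrades glutathione, measured 31.5, 75.7 and 30.3 at 6 hours and 552, 515 and 591 on Day 1 (log2 fold change 3.73 ± 0.32, adjusted p = 0.000714). Cth (ID 107869), which makes cysteine from cystathionine, measured 28.4, 18.3 and 43.5 at 6 hours and 297, 289.9 and 316 on Day 1 (log2 fold change 3.41 ± 0.27, adjusted p = 0.00053). With low values raised to 50, Chac1 rose by 3.26 and Cth by 2.59. Neither gene had overlapping arrays, and 6 hours replicate 2 was the highest of its time point for Chac1 and the lowest for Cth. Pck2 (ID 74551), the mitochondrial phosphoenolpyruvate carboxykinase, measured 19.3, 20.1 and 25.3 at 6 hours and 119, 111 and 138 on Day 1 (log2 fold change 2.51 ± 0.14, adjusted p = 0.000115). It rose in both of its probe sets, by 1.49 on the log2 scale in the one with the higher level, and by 1.29 with low values raised. Nupr1 (ID 56312), a stress-induced chromatin protein, measured 225, 402 and 214 at 6 hours and 1181, 1334 and 1187 on Day 1, again with 6 hours replicate 2 above its fellows.

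The mRNA of the factor itself rose less. Atf4 (ID 11911) measured 1962, 2089 and 1762 at 6 hours and 3670.2, 3489.8 and 4143 on Day 1 (log2 fold change 0.96 ± 0.11, adjusted p = 0.00214). Its arrays did not overlap. The related factors Atf5 (ID 107503) (1.54 ± 0.14), Ddit3 (ID 13198), encoding CHOP (1.45 ± 0.18), Cebpb (ID 12608) (1.05 ± 0.13) and Cebpg (ID 12611) (1.10 ± 0.12) rose as well, all in every fit that left out 1 array. The amino acid transporters tested rose, with the exception of Slc38a2 below. Slc7a11, which is also listed, was not tested. Slc7a5 rose by 1.43 ± 0.13, its partner Slc3a2 by 1.08 ± 0.12, Slc7a1 by 0.68 ± 0.13 and Slc1a4 by 1.00 ± 0.15 on the log2 scale. The enzymes of serine and one-carbon metabolism were uneven. Psph rose by 1.11 ± 0.13 and Mthfd2 by 1.40 ± 0.13, Shmt2 by only 0.52 ± 0.10 and Psat1 by 0.54 ± 0.15, whereas Phgdh, the step that commits carbon to serine, did not pass (0.13 ± 0.14, adjusted p = 0.49). The call for Psat1 was lost without 6 hours replicates 1 or 3 or Day 1 replicates 1, 2 or 3, and that for Shmt2 without 6 hours replicate 1. The transporter gene Slc38a2 was the other tested gene that did not pass (-0.13 ± 0.13, adjusted p = 0.486). These factors, transporters and enzymes were named to complete the list, after their values had been seen.

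At 6 hours these genes stood below their levels on the days around it. Trib3 had a level of 244 ± 65.8 on Day -1 and 1805 ± 121 on Day 0 (mean ± SD, n = 3), before it stood under 16 in each array of 6 hours. Cth had 1431 ± 30.6 on Day 0, Chac1 1044 ± 24.9 and Ddit3 1431 ± 229, each above its Day 1 level. Fgf21 differed from them, with 3.42 ± 1.21 on Day -1, 129 ± 3.17 on Day 0 and a Day 1 level above that of Day 0. With 6 hours as the reference, the 26 genes had a median log2 level of 0.83 on Day -1 and of 1.87 a day later, with 1.11 and 1.66 on Day 1 and Day 2. Fresh medium, reduced serum and time since induction cannot be told apart at 6 hours.

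**Figure D2:**
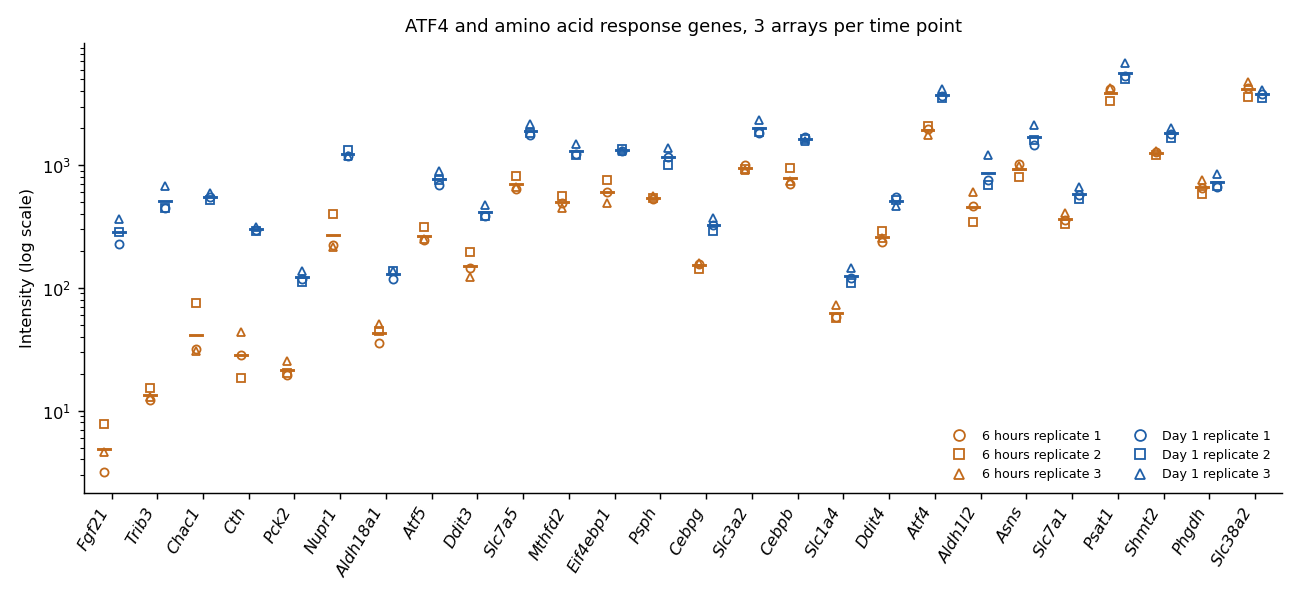
Intensity (log scale) of the 26 tested ATF4 and amino acid response genes on the 3 arrays of 6 hours (orange) and the 3 of Day 1 (blue), ordered by log2 fold change, with symbols for replicate numbers and bars for the mean of the log2 values. Fgf21, Trib3, Chac1, Cth and Pck2 lie lowest at 6 hours, and only Phgdh and Slc38a2 at the right end did not pass the test.

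Aminoacyl-tRNA synthetases, several of which are also ATF4 targets, changed less evenly. Of 19 tested, 6 rose and 2 fell, with a median of 0.29. Cars (ID 27267) measured 304, 250.1 and 281 at 6 hours and 554, 484 and 684 on Day 1 (log2 fold change 1.03 ± 0.15, adjusted p = 0.00383), and Sars, Eprs, Iars, Yars and Aars rose by between 0.52 and 0.78 on the log2 scale. Farsa (-0.46 ± 0.10) and Rars (-0.36 ± 0.10) fell, but the former call was lost without 6 hours replicate 1 or Day 1 replicates 2 or 3 and the latter in every fit but the one without 6 hours replicate 2. Those for Yars and Aars were lost without 6 hours replicates 1 or 3 or Day 1 replicates 1 or 3 and without 6 hours replicate 1 or Day 1 replicates 1 or 3, respectively. The probe sets of Eprs (0.24) and Aars (0.43) with the highest level did not pass. Chaperones of the endoplasmic reticulum are induced by the unfolded protein response through ATF6 and XBP1. The list that holds them, with genes of translocation, degradation and sensing in this compartment, went the other way. Of 29 tested, 13 fell and 2 rose, with a median of -0.31, and the number that fell lay between 7 (without 6 hours replicate 1) and 19 (without 6 hours replicate 2) when 1 array was left out. Sec61a1 (ID 53421), the channel of the translocon, measured 2543, 1992 and 2594 at 6 hours and 1297, 1214 and 1266 on Day 1 (log2 fold change -0.91 ± 0.12, adjusted p = 0.00331). Hyou1 (ID 12282) (-0.81 ± 0.12), a chaperone, Dnajc3 (ID 100037258) (-0.72 ± 0.10), a co-chaperone, and Pdia4 (ID 12304) (-0.72 ± 0.12), a disulfide isomerase, fell in every fit that left out 1 array. Hspa5 (ID 14828), the chaperone BiP, measured 9233, 7529 and 10099 at 6 hours and 6176, 5748 and 6584 on Day 1 (log2 fold change -0.53 ± 0.13, adjusted p = 0.0223), a call lost without 6 hours replicates 1 or 3 or Day 1 replicates 1 or 2. The 2 that rose were Herpud1 (ID 64209), a part of the degradation machinery of this compartment that is also an ATF4 target, which measured 294, 315 and 334 at 6 hours and 691, 689.6 and 897 on Day 1, and the sensor Atf6 (ID 226641), which measured 221, 209 and 250.2 at 6 hours and 394, 352 and 433 on Day 1. Xbp1 had a log2 fold change of -0.24 ± 0.10 and did not pass.

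Genes of the sarcomere and of contraction rose together. Of 52 listed, 33 were tested, of which 27 rose, 1 fell and 5 did neither. Their median log2 fold change was 1.58. Over the 33, the median level of an array was 421, 427 and 543 at 6 hours and 1783, 2126 and 2421 on Day 1, so that the arrays of the 2 time points were far apart. Leaving out 1 array left between 25 and 27 of them called.

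Promoters of 2 genes of this list are printed for the E-box CAGCTG, the core letters recognized by MyoD and myogenin with their E-protein partners, which reads the same on both strands and is in capitals.
Myoz2 (chr3:123034938-123035237, minus strand): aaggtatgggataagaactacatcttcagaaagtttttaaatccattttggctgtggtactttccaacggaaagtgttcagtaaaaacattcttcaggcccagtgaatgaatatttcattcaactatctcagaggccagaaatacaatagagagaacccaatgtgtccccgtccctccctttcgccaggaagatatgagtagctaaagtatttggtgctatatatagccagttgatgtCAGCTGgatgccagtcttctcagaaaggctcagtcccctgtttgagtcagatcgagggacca
Mybph (chr1:134193198-134193497, plus strand): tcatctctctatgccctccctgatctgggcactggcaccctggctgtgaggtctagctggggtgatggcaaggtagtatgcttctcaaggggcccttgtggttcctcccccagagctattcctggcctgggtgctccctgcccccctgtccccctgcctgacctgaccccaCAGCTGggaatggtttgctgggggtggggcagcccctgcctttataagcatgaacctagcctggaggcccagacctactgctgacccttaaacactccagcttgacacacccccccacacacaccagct
The match began 12 bases upstream of the gene start in Myoz2 and 79 in Mybph. Of the 27 rising sarcomere genes, 22 had a window and 11 of these (50.0%) held CAGCTG, against 16.6% of all 5970 tested genes with a window, 24.2% of the rising genes and 35.7% of those that rose at least 2-fold. The related E-box CAGGTG was held by 36.4% of the rising sarcomere genes, 18.5% of all tested genes and 19.6% of those that rose at least 2-fold.

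Myoz2 (ID 59006), which sits at the Z-disc and binds calcineurin, measured 10.2, 21.1 and 21.3 at 6 hours and 167, 180.3 and 264 on Day 1 (log2 fold change 3.58 ± 0.30, adjusted p = 0.000658). Myl4 (ID 17896), an essential light chain of embryonic muscle myosin, measured 259, 270.4 and 255 at 6 hours and 1783, 2126 and 2421 on Day 1 (log2 fold change 3.00 ± 0.13, adjusted p = 4.53e-05). Neb (ID 17996), the giant protein along the thin filament, measured 34.0, 18.4 and 42.9 at 6 hours and 177, 192 and 296 on Day 1 (log2 fold change 2.85 ± 0.32, adjusted p = 0.0018). None of these had overlapping arrays, and Day 1 replicate 3 was the highest array for each. As the 6 hours values of Myoz2 and Neb were low, their changes were 2.00 and 2.11 with values below 50 raised to 50. The small muscle proteins Smpx (ID 66106) (2.80 ± 0.15) and Csrp3 (ID 13009), the LIM protein of the Z-disc (2.76 ± 0.29), rose from levels under 50, by 2.58 and 1.33 with low values raised.

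Each of the 7 tested troponin genes rose. The slow skeletal troponin T gene Tnnt1 (ID 21955) measured 179.8, 242 and 221 at 6 hours and 759.9, 900.0 and 970.2 on Day 1 (log2 fold change 2.04 ± 0.14, adjusted p = 0.00028) and the fast one, Tnnt3 (ID 21957), measured 414, 427 and 472 at 6 hours and 1716, 1952 and 2424 on Day 1 (log2 fold change 2.20 ± 0.14, adjusted p = 0.00024). The troponin I genes Tnni1 (1.87 ± 0.13) and Tnni2 (1.83 ± 0.15) and the troponin C genes Tnnc1 (1.62 ± 0.10) and Tnnc2 (2.00 ± 0.13) lay close together, so genes named for slow and fast fibres rose alike in direction. Tnnt2 (ID 21956), the cardiac-type troponin T that developing skeletal muscle also uses, measured 2446, 2819.6 and 2967 at 6 hours and 5665, 6076 and 6744 on Day 1 (log2 fold change 1.17 ± 0.12, adjusted p = 0.00118). Of the myosins, Myh3 (ID 17883), the embryonic heavy chain, measured 1103, 763 and 1537 at 6 hours and 3703, 3550.0 and 5509.6 on Day 1 (log2 fold change 1.94 ± 0.27, adjusted p = 0.00346), with 6 hours replicate 2 lowest. Mybph (ID 53311), a myosin-binding protein, measured 672, 578 and 719 at 6 hours and 2955, 3049.6 and 4232 on Day 1 (log2 fold change 2.36 ± 0.16, adjusted p = 0.00028). The sarcomeric actins were already high at 6 hours and rose less. Acta1 (ID 11459) measured 4074, 3917 and 4968 at 6 hours and 7699, 8284 and 9017 on Day 1 (log2 fold change 0.95 ± 0.12, adjusted p = 0.00279) and Actc1 (ID 11464) 1460.1, 1782 and 1734 at 6 hours and 3025, 3671 and 3829 on Day 1 (log2 fold change 1.08 ± 0.13, adjusted p = 0.00229).

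A few members did not follow. Tpm1 (ID 22003), α-tropomyosin, was the one that fell, and measured 3820.3, 3464 and 3734 at 6 hours and 2605, 2418 and 2227 on Day 1 (log2 fold change -0.61 ± 0.10, adjusted p = 0.00638). Its probe set with the highest level had a log2 fold change of -0.05, so its probe sets did not move alike. Titin (Ttn, 0.28 ± 0.21, adjusted p = 0.343), the intermediate filament desmin (Des, 0.06 ± 0.09) and the fast α-actinin Actn3 (0.19 ± 0.15) did not pass. The rise of Synpo2l (1.22 ± 0.19) was absent from its probe set with the highest level (0.02). Myom2 rose by 1.20 ± 0.29, a call lost without 6 hours replicate 1 or Day 1 replicates 2 or 3 and in its probe set with the highest level (0.88), and Ldb3 by 0.89 ± 0.17, lost without 6 hours replicate 1. Untested members, such as Myh2, Myh4, Myh7 and Tcap, had no probe set of 1 gene with a mean of 100 at either time point.

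**Figure D3:**
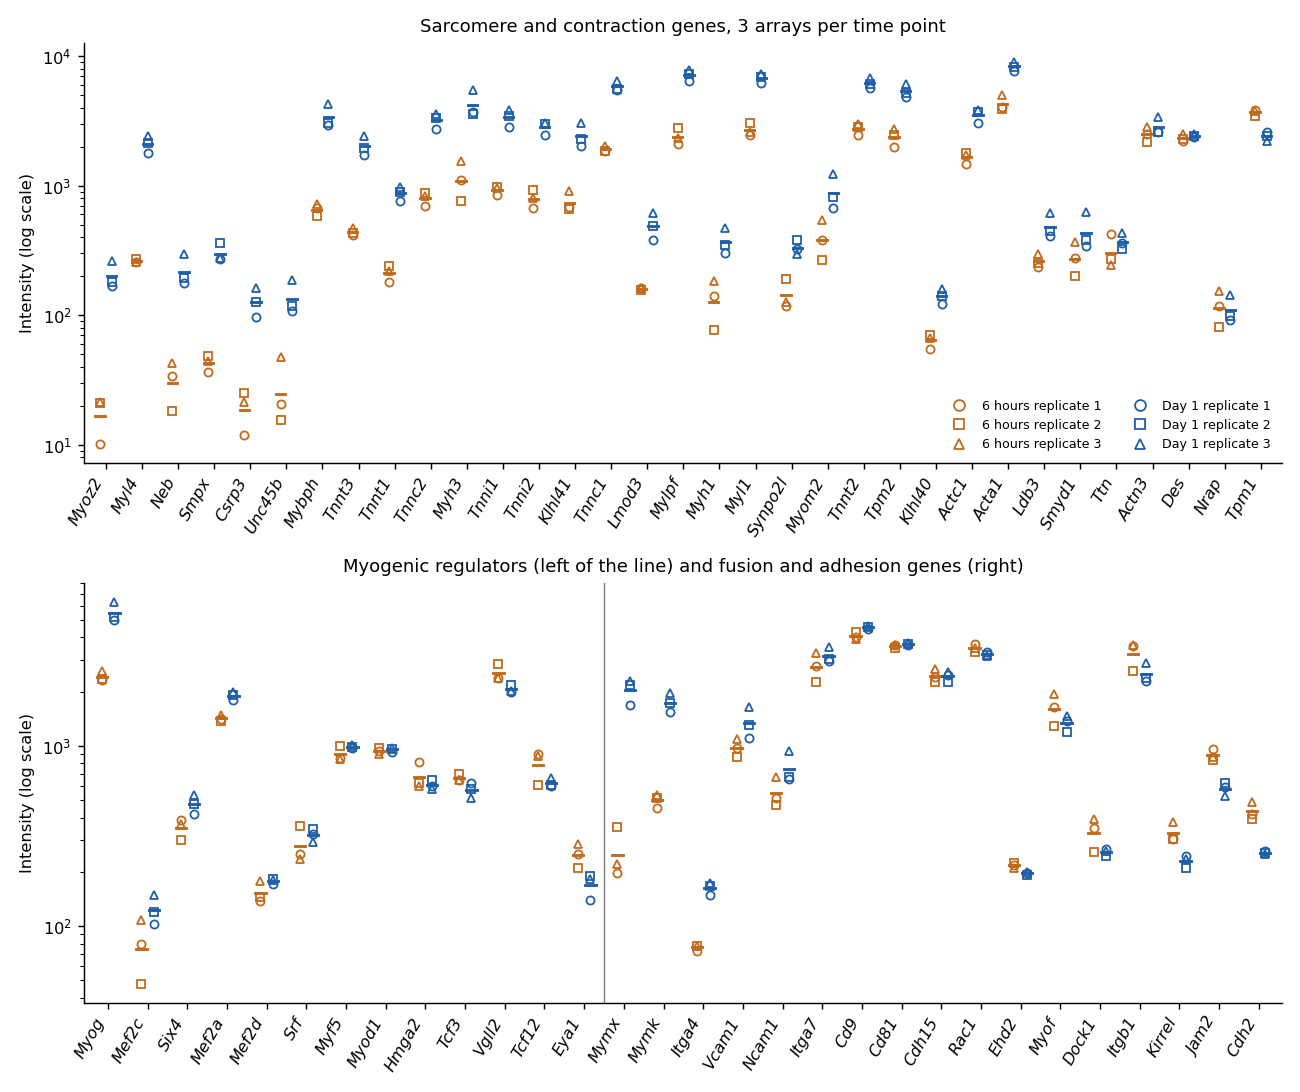
Intensity (log scale) on the 3 arrays of 6 hours (orange) and the 3 of Day 1 (blue), with symbols for replicate numbers and bars for the mean of the log2 values. Upper panel, the 33 tested sarcomere and contraction genes from the largest rise (Myoz2) to the only fall (Tpm1). Lower panel, the 13 myogenic regulators and the 17 fusion and adhesion genes, among which Myog, Mymx and Mymk lie far apart while Myod1 and Myf5 overlap.

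Calcium handling rose beside the contractile genes. Of 15 tested (23 listed), 12 rose and 1 fell, with a median of 0.78. Atp2a1 (ID 11937), the calcium pump SERCA1 of fast muscle, measured 145, 139 and 184 at 6 hours and 539.8, 666 and 869 on Day 1 (log2 fold change 2.13 ± 0.19, adjusted p = 0.000778). Casq2 (ID 12373) and Hrc (ID 15464), which bind calcium inside the sarcoplasmic reticulum, rose by 1.99 ± 0.17 and 2.80 ± 0.16 (1.66 for Hrc with low values raised). Ryr1 (ID 20190), the release channel, measured 128, 72.6 and 142 at 6 hours and 287, 286 and 404 on Day 1 (log2 fold change 1.55 ± 0.26, adjusted p = 0.0063), and the dihydropyridine receptor subunit Cacnb1 (ID 12295) rose by 1.52 ± 0.17. Asph (ID 65973), which encodes aspartyl hydroxylase and junctin, was the one that fell, and measured 442, 402 and 448 at 6 hours and 294, 252 and 263 on Day 1 (log2 fold change -0.68 ± 0.10, adjusted p = 0.00474). Probe sets of Atp2a2, the widely expressed pump SERCA2, were called in both directions. It rose in the one used (0.70 ± 0.19), a call lost without 6 hours replicate 1 or Day 1 replicates 2 or 3, and had a log2 fold change of -0.39 in the one with the highest level. Such a split was seen in 5 of 2840 tested genes with more than 1 probe set. The number of calcium handling genes that rose was 9 without 6 hours replicate 1 or Day 1 replicate 2 or 3.

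Ckm (ID 12715), the creatine kinase of muscle, measured 88.0, 81.1 and 107 at 6 hours and 434, 489 and 674 on Day 1 (log2 fold change 2.52 ± 0.18, adjusted p = 0.000294). Mb (ID 17189), myoglobin, measured 57.9, 61.1 and 50.8 at 6 hours and 256, 295 and 297 on Day 1 (log2 fold change 2.32 ± 0.11, adjusted p = 7.80e-05). Neither overlapped between the time points, and 4 of 7 tested genes of energy buffering rose with none falling, whereas the brain-type Ckb stayed within its spread (-0.00 ± 0.11, adjusted p = 0.994). Of 10 tested genes of the neuromuscular junction 3 rose, and between 1 (without Day 1 replicate 1) and 4 (without 6 hours replicate 2) rose when 1 array was left out. Chrng (ID 11449), the fetal subunit of the acetylcholine receptor, measured 247, 244 and 291 at 6 hours and 638, 676 and 977 on Day 1 (log2 fold change 1.53 ± 0.17, adjusted p = 0.00182), while Chrna1 (-0.02 ± 0.09), Chrnb1 (0.20 ± 0.10), Musk (-0.33 ± 0.15) and Rapsn (0.09 ± 0.09) did not pass. Chrnd (ID 11447) (0.92 ± 0.27) passed, but the call was lost without 6 hours replicates 1 or 3 or Day 1 replicates 1, 2 or 3. Lrp4 (ID 228357) rose by 1.13 ± 0.21, a call lost without Day 1 replicate 1. In the dystrophin-glycoprotein complex, which links the cytoskeleton to the matrix, 4 of 8 tested rose, led by Sgca (ID 20391), α-sarcoglycan (1.21 ± 0.15). Of the 4, the number that rose was 1 without 6 hours replicate 1 and 2 without Day 1 replicate 2 or 3, and the call for Sgca held in every such fit.

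The myogenic regulators were uneven. Myod1 (ID 17927) measured 939.7, 968 and 906 at 6 hours and 931, 961 and 975 on Day 1 (log2 fold change 0.03 ± 0.09, adjusted p = 0.839) and Myf5 (ID 17877) 858, 998 and 851 at 6 hours and 974, 981 and 1008 on Day 1 (log2 fold change 0.13 ± 0.10, adjusted p = 0.345). The arrays of both time points overlapped for each, and the difference lay within the replicate spread. Myog (ID 17928), myogenin, measured 2324, 2364 and 2595 at 6 hours and 4988, 5206 and 6301 on Day 1 (log2 fold change 1.17 ± 0.12, adjusted p = 0.00127), after 2621 ± 67.0 on Day 0 (mean ± SD, n = 3). It was the largest rise among the 13 tested regulators, of which 3 rose, 1 fell and 9 did neither (between 1 (without 6 hours replicate 1 or Day 1 replicate 2 or Day 1 replicate 3) and 4 (without 6 hours replicate 2) rose when 1 array was left out). Mef2c (ID 17260), a MADS-box partner of the myogenic factors, measured 79.7, 48.0 and 108 at 6 hours and 103, 119.6 and 149 on Day 1 (log2 fold change 0.72 ± 0.28, adjusted p = 0.0936), and its arrays overlapped. Mef2a (ID 17258) rose by 0.41 ± 0.09 and Six4 (ID 20474) by 0.44 ± 0.14, and Eya1 (ID 14048), a co-activator that works with Six4, fell (-0.54 ± 0.16). The call for Mef2a was lost without 6 hours replicate 1 or Day 1 replicates 2 or 3, and those for Six4 and Eya1 in every fit but the one without 6 hours replicate 2. Myf6 was not tested, as it did not reach 100.

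All 3 tested Id genes fell. Id2 (ID 15902) measured 234, 295 and 239 at 6 hours and 85.7, 84.8 and 58.7 on Day 1 (log2 fold change -1.76 ± 0.17, adjusted p = 0.00112), or -1.07 in its probe set with the highest level, and was among the 12 largest falls. Id3 (ID 15903) measured 722, 1097 and 715 at 6 hours and 396, 388 and 276 on Day 1 (log2 fold change -1.25 ± 0.21, adjusted p = 0.0061), and Id1 (ID 15901) measured 491, 775 and 562 at 6 hours and 354, 354 and 280.4 on Day 1 (log2 fold change -0.87 ± 0.18, adjusted p = 0.0133). For each of them 6 hours replicate 2 was the highest array and no array overlapped. Other genes that restrain differentiation did not share this direction, since the repressors Snai2 (ID 20583) (0.71 ± 0.11) and Zeb1 (ID 21417) (0.45 ± 0.09) rose and the Notch target Hes1 (ID 15205) (0.13 ± 0.14, adjusted p = 0.534) did not pass. The call for Zeb1 was lost without 6 hours replicate 1.

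Both membrane proteins that drive fusion rose. Mymk (ID 66139), myomaker, measured 455, 515 and 532 at 6 hours and 1542, 1727 and 1968 on Day 1 (log2 fold change 1.80 ± 0.12, adjusted p = 0.00028), and Mymx (ID 653016), myomixer, measured 197, 355 and 221 at 6 hours and 1683, 2177 and 2286 on Day 1 (log2 fold change 3.03 ± 0.23, adjusted p = 0.000364). On Day 0 their levels had been 901 ± 27.7 and 783 ± 53.2 (mean ± SD, n = 3). Most adhesion proteins around them did not pass, and of 17 tested genes 3 rose and 3 fell, beside 12.4% and 19.4% of all tested genes. Itga4 (ID 16401), the α4 integrin subunit, was the third that rose and measured 72.8, 78.0 and 77.8 at 6 hours and 148, 167 and 174 on Day 1 (log2 fold change 1.10 ± 0.10, adjusted p = 0.000875). Jam2 (ID 67374) (-0.61 ± 0.11) fell, as did Cdh2 (ID 12558), N-cadherin (-0.76 ± 0.11) and Kirrel (ID 170643) (-0.51 ± 0.12). The probe set of Cdh2 with the highest level had a log2 fold change of 0.05, and the call for Kirrel was lost without 6 hours replicates 1 or 3 or Day 1 replicates 1, 2 or 3. The number that fell was 6 without 6 hours replicate 2. M-cadherin (Cdh15, -0.00 ± 0.10) did not pass.

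Genes of DNA replication fell without exception among those that passed. Of 44 tested (49 listed), 29 fell and none rose, and the median over the list was -0.52. The median level of an array was 608, 575 and 593 at 6 hours and 433, 400.4 and 346 on Day 1. The number that fell lay between 18 (without 6 hours replicate 1) and 29 (without 6 hours replicate 2) when 1 array was left out.

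Promoters of 3 subunits of the replicative helicase are shown for the letters TTTCGCGC or TTTGGCGC, 2 forms of the site recognized by E2F factors, searched on both strands and set in capitals. Both forms can overlap, so matches that share bases were counted as separate matches.
Mcm5 (chr8:75109259-75109558, plus strand): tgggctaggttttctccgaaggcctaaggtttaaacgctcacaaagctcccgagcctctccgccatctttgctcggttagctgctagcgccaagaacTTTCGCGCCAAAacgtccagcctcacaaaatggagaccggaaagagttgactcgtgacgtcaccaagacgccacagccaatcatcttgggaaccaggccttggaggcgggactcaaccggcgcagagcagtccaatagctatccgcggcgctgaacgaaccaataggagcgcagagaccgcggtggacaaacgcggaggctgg
Mcm6 (chr1:128359656-128359955, minus strand): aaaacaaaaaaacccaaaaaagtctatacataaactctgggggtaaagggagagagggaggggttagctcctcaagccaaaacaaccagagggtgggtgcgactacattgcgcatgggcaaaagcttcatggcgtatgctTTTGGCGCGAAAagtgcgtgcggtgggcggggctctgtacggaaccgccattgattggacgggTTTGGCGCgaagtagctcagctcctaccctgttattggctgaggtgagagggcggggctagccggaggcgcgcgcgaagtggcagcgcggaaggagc
Mcm3 (chr1:20820263-20820562, minus strand): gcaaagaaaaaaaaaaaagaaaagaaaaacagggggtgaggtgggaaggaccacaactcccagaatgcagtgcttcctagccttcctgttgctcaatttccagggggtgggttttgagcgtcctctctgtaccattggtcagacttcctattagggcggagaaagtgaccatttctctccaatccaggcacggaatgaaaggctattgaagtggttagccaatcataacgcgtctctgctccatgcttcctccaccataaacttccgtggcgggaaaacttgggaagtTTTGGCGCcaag
Matches began 153 and 149 bases upstream of the gene start in Mcm5, 110, 106 and 47 upstream in Mcm6 and 38 downstream in Mcm3. Of the 29 falling replication genes, 27 had a window and 10 of these (37.0%) held a match, against 2.08% of all tested genes with a window, 3.40% of falling genes and 4.65% of the tested mitosis genes. Of the tested replication genes with a window, called or not, 30.6% held a match. The pentamer CCAAT was found in 81.8% of the 22 falling mitosis genes with a window, 63.0% of the 27 falling replication genes and 78.6% of 14 falling cholesterol genes. Among tested members of these 3 lists, called or not, the shares were 74.4%, 63.9% and 85%. The share was 47.5% of all falling genes and 42.9% of all tested genes with a window.

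Cdc6 (ID 23834), a loader of the helicase onto origins, measured 560.3, 471 and 660.3 at 6 hours and 260.1, 207 and 182 on Day 1 (log2 fold change -1.38 ± 0.17, adjusted p = 0.00239). Mcm5 (ID 17218) measured 865, 697 and 897 at 6 hours and 427, 394 and 344 on Day 1 (log2 fold change -1.07 ± 0.13, adjusted p = 0.00245), and Mcm3 (ID 17215) (-0.90 ± 0.13) and Mcm6 (ID 17219) (-0.36 ± 0.10) fell too. The call for Mcm6 was lost in every fit but the one without 6 hours replicate 2, whereas those for Cdc6, Mcm5 and Mcm3 held in all. In a fit of all 24 arrays the calls for Mcm5 and Mcm6 were lost, and 23 of the list fell. Rrm2 (ID 20135), the S-phase subunit of ribonucleotide reductase, measured 2776, 2336 and 2524 at 6 hours and 1327, 1222 and 1091 on Day 1 (log2 fold change -1.07 ± 0.12, adjusted p = 0.00162). Orc2 (ID 18393), of the origin recognition complex, measured 337, 291 and 301 at 6 hours and 162, 155 and 165 on Day 1 (log2 fold change -0.94 ± 0.10, adjusted p = 0.00147), and Fen1 (ID 14156), the flap endonuclease, fell likewise (-1.02 ± 0.13). None of the arrays overlapped for these genes. Wdhd1 (ID 218973), a replisome protein outside the list and one of the 12 largest falls, measured 109, 78.4 and 145 at 6 hours and 35.0, 26.7 and 25.1 on Day 1 (log2 fold change -1.91 ± 0.23, adjusted p = 0.00221), or -1.10 with low values raised. It was not tested without 6 hours replicate 3, as its level then lay under 100. Tk1 (-0.33 ± 0.21), Dut (0.21 ± 0.18) and Gmnn (-0.39 ± 0.16), which also serve S phase, did not pass.

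**Figure D4:**
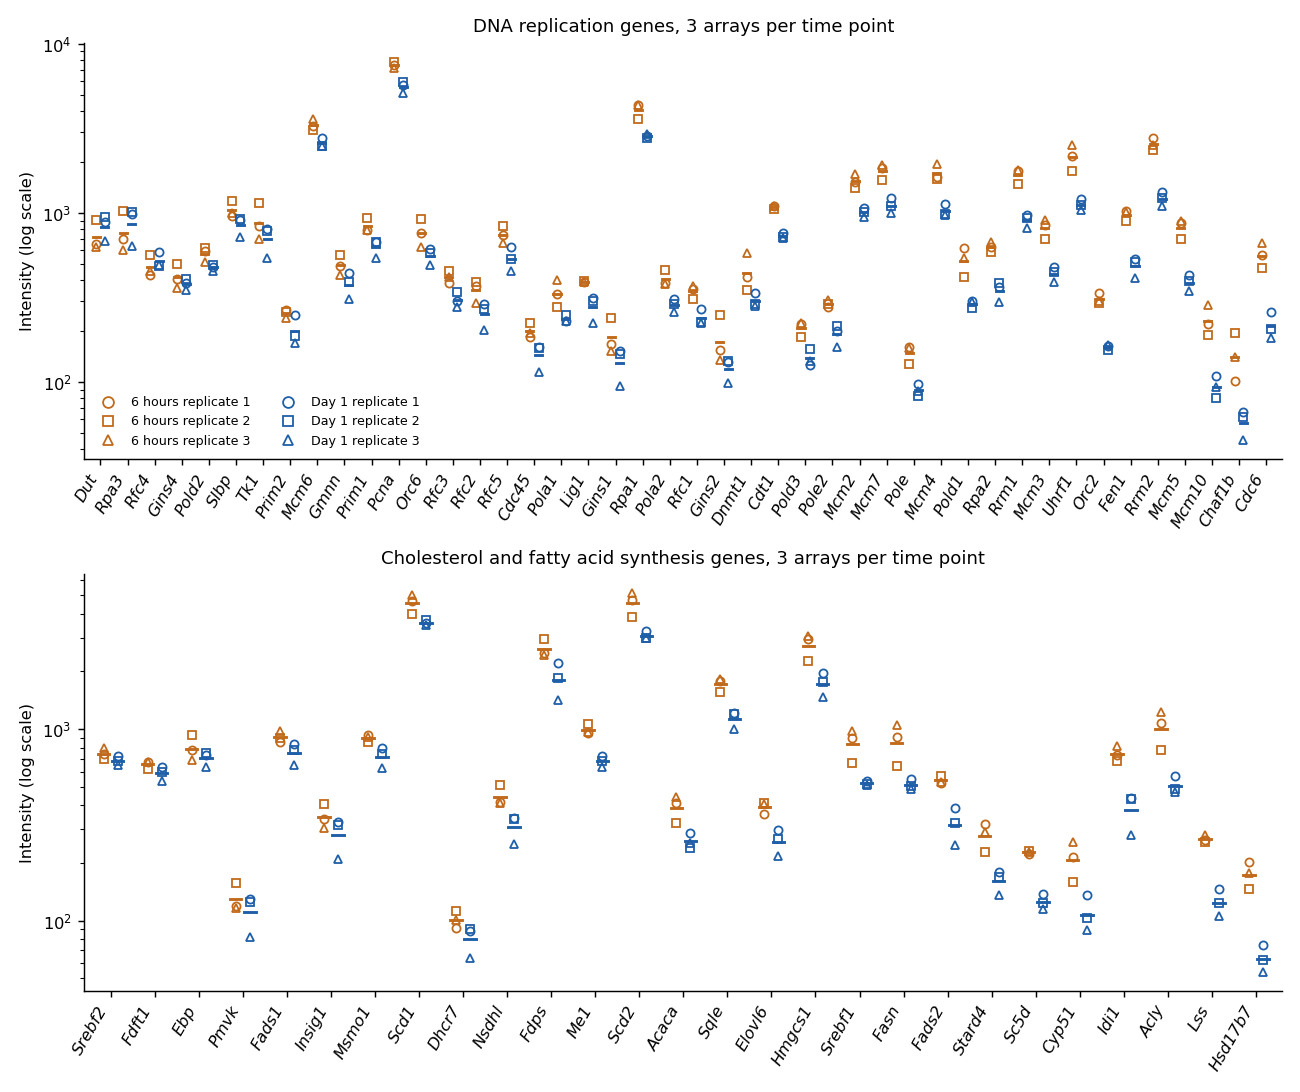
Intensity (log scale) on the 3 arrays of 6 hours (orange) and the 3 of Day 1 (blue), with symbols for replicate numbers and bars for the mean of the log2 values. Upper panel, the 44 tested DNA replication genes, from those that did not pass at the left to the largest falls at the right (Mcm10, Chaf1b, Cdc6). Lower panel, the 27 tested cholesterol and fatty acid synthesis genes, with Acly, Lss and Hsd17b7 at the right end, and Day 1 replicate 3 the lowest array for most of the falling genes.

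Genes of mitosis moved the same way. Of 53 tested, 28 fell and none rose (median -0.43), and the number that fell lay between 11 (without 6 hours replicate 1) and 33 (without 6 hours replicate 2) when 1 array was left out. In a fit of all 24 arrays, which takes the spread over every time point, 4 of the 53 fell, and the calls for Tpx2, Mki67 and Top2a given here were lost. Tpx2 (ID 72119), a spindle assembly factor, measured 222, 209 and 267 at 6 hours and 143, 126 and 127 on Day 1 (log2 fold change -0.81 ± 0.12, adjusted p = 0.00456). Kif23 (ID 71819), a kinesin of cytokinesis, measured 602, 598 and 576 at 6 hours and 401, 381 and 322 on Day 1 (log2 fold change -0.69 ± 0.11, adjusted p = 0.00528). Bub3 (ID 12237) fell (-0.63 ± 0.10), with a log2 fold change of -0.12 in its probe set with the highest level. Among the best known members, Mki67 (-0.71 ± 0.15) fell, a call lost without 6 hours replicate 1 or Day 1 replicate 2, and Top2a (-0.36 ± 0.11) fell, a call lost without 6 hours replicates 1 or 3 or Day 1 replicates 2 or 3, whereas Cdk1 (-0.20 ± 0.15), Ccnb2 (0.10 ± 0.13), Aurkb (-0.23 ± 0.13) and Birc5 (-0.26 ± 0.22) did not pass. These 6 were named after their values had been seen. The median level over the list was 571, 548 and 506 at 6 hours and 427, 381 and 311 on Day 1, so that mitotic transcripts were still measured in all arrays of Day 1.

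Genes of the G1 phase moved in both directions, with 3 of 20 tested rising and 6 falling (5 and 8 without 6 hours replicate 2). Cdc25a (ID 12530), the phosphatase that activates CDK2, measured 110.0, 105 and 111 at 6 hours and 49.4, 42.3 and 43.9 on Day 1 (log2 fold change -1.27 ± 0.10, adjusted p = 0.000502), and E2f1 (ID 13555) and Skp2 (ID 27401) fell as well (-0.58 ± 0.10 and -0.71 ± 0.11). Ccnd2 (ID 12444) measured 189.7, 193 and 188 at 6 hours and 410.1, 386 and 417 on Day 1 (log2 fold change 1.09 ± 0.09, adjusted p = 0.000593) and Ccnd3 (ID 12445), the D cyclin that stays in differentiating muscle, measured 1459, 1627 and 1490.3 at 6 hours and 2142, 2217 and 2385 on Day 1 (log2 fold change 0.56 ± 0.10, adjusted p = 0.0071). Cyclin D1 did not pass (Ccnd1 (ID 12443), 0.52 ± 0.19, adjusted p = 0.0747). Of the 15 tested CDK inhibitors, pocket proteins and related growth arrest genes, 7 rose and none fell. Cdkn1a (ID 12575), the inhibitor p21, measured 612, 824 and 620.1 at 6 hours and 1462, 1779 and 1502 on Day 1 (log2 fold change 1.21 ± 0.15, adjusted p = 0.00222). Cdkn1b (ID 12576), p27, measured 447, 670.0 and 439 at 6 hours and 993, 1007 and 975 on Day 1 (0.96 ± 0.17), with 6 hours replicate 2 above its fellows. Gadd45a (ID 13197) measured 548, 569 and 502 at 6 hours and 1582, 1704 and 2003 on Day 1 (log2 fold change 1.70 ± 0.12, adjusted p = 0.00028), and Gas1 (ID 14451) rose by 0.70 ± 0.10. The retinoblastoma gene Rb1 (ID 19645) measured 722, 562 and 931 at 6 hours and 948, 947 and 1329 on Day 1, which did not overlap but did not pass (adjusted p = 0.0833). Of these genes 4 rose without 6 hours replicate 1 or Day 1 replicate 2, and 10 rose and 2 fell without 6 hours replicate 2.

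In ribosome biogenesis 37 of 65 tested fell with none rising and a median of -0.44, or 26 in the probe sets with the highest level. The steps were small and the count was sensitive to single arrays, as between 13 (without 6 hours replicate 1 or Day 1 replicate 2) and 42 (without 6 hours replicate 2) fell when 1 array was left out, and without 6 hours replicate 2 there were also 4 that rose. Dkc1 (ID 245474), dyskerin of the pseudouridylation complex, measured 598, 565 and 549 at 6 hours and 327, 302 and 285 on Day 1 (log2 fold change -0.91 ± 0.10, adjusted p = 0.00162). Nolc1 (ID 70769), a nucleolar chaperone of these particles, measured 339, 311 and 408 at 6 hours and 204, 165 and 167 on Day 1 (log2 fold change -0.98 ± 0.14, adjusted p = 0.00374). Nop56 (ID 67134), of the methylation complex, measured 852, 814 and 753 at 6 hours and 526, 507 and 451 on Day 1 (log2 fold change -0.71 ± 0.10, adjusted p = 0.00436). No array overlapped for these 3 genes, but the probe set of Dkc1 with the highest level did not pass (-0.46). The subunits Polr1a (-0.64 ± 0.16) and Polr1b (-0.73 ± 0.22) of RNA polymerase I and its factor Ubtf (-0.63 ± 0.16) fell, but these 3 calls were lost in every fit that left out 1 array except the one without 6 hours replicate 2. The abundant nucleolar proteins Npm1 (-0.21 ± 0.09) and Fbl (-0.22 ± 0.12) did not pass, and Myc (ID 17869), which drives this programme in growing cells, measured 265, 333 and 305 at 6 hours and 357, 316 and 377 on Day 1 (log2 fold change 0.22 ± 0.12, adjusted p = 0.205). Of 31 tested cytosolic ribosomal proteins only Rpl22 (ID 19934) passed, and it rose (0.62 ± 0.15, but 0.14 in its probe set with the highest level), a call lost without 6 hours replicate 1 or Day 1 replicates 2 or 3. Of these, 11 rose without 6 hours replicate 2 and none without 6 hours replicate 1 or Day 1 replicate 2 or 3. In mRNA splicing 14 of 43 fell and 2 rose (median -0.26), with Srsf6 (ID 67996) (-0.73 ± 0.11), Prpf31 (ID 68988) (-0.60 ± 0.09) and Prpf4 (ID 70052) (-0.70 ± 0.11) first by adjusted p. The 2 that rose were Hnrnpa1 (ID 15382) (0.52 ± 0.12) and Hnrnpr (0.40 ± 0.11), neither of them in every fit that left out 1 array. In their probe sets with the highest level the log2 fold changes were -0.02 and 0.06, and neither passed. Without 6 hours replicate 2, 5 genes of the list rose. The number that fell lay between 6 (without 6 hours replicate 1) and 21 (without 6 hours replicate 2) when 1 array was left out.

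The muscle splicing regulator Rbm24 (ID 666794) measured 99.3, 141 and 129 at 6 hours and 346, 426 and 416 on Day 1 (log2 fold change 1.70 ± 0.15, adjusted p = 0.000833). Celf2 (ID 14007) rose (0.58 ± 0.10), whereas Mbnl1 (ID 56758) (-0.58 ± 0.10) and Ptbp1 (ID 19205) (-0.52 ± 0.12), a repressor of muscle exons, fell. The call for Ptbp1 was lost without 6 hours replicates 1 or 3 or Day 1 replicates 2 or 3. The arrays measure the levels of these transcripts and not the splicing of their targets.

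The list of cholesterol and fatty acid synthesis had a median of -0.58. Its genes are induced by the SREBP factors when sterols are scarce. Of 27 tested, 17 fell and none rose, and over the list the median level of an array was 731, 641 and 686 at 6 hours and 539, 487 and 468 on Day 1. Between 7 (without 6 hours replicate 1) and 19 (without 6 hours replicate 2) fell when 1 array was left out. Hsd17b7 (ID 15490) measured 202, 147 and 177 at 6 hours and 74.2, 62.0 and 54.1 on Day 1 (log2 fold change -1.47 ± 0.16, adjusted p = 0.00162) and Lss (ID 16987), which closes the sterol rings, measured 265, 257 and 281 at 6 hours and 145, 123 and 106 on Day 1 (log2 fold change -1.11 ± 0.13, adjusted p = 0.00214). Sc5d (ID 235293), a late desaturase, measured 224, 232 and 229 at 6 hours and 138, 124 and 115 on Day 1 (log2 fold change -0.87 ± 0.10, adjusted p = 0.00214). No arrays overlapped for these enzymes, and Day 1 replicate 3 was the lowest for each. Hmgcs1 (ID 208715), at the entrance of the pathway, measured 2937, 2266 and 3059 at 6 hours and 1956, 1752 and 1472 on Day 1 (log2 fold change -0.67 ± 0.15, adjusted p = 0.0182), a call lost without 6 hours replicates 1 or 3 or Day 1 replicates 2 or 3 and made by 1 of its 4 probe sets (-0.40 in the one with the highest level). Acly (ID 104112), which supplies cytosolic acetyl-CoA, fell (-0.99 ± 0.17, and -0.40 in its probe set with the highest level), and so did Fasn (-0.73 ± 0.18) and Srebf1 (-0.68 ± 0.15), the factor of fatty acid synthesis. The calls for Fasn and Srebf1 were lost without 6 hours replicates 1 or 3 or Day 1 replicates 1, 2 or 3 and without 6 hours replicate 1 or Day 1 replicates 2 or 3, respectively. Insig1 (-0.32 ± 0.19) and Srebf2 (-0.12 ± 0.10) did not pass. On Day 0 Hmgcs1 had measured 1009 ± 27.1 (mean ± SD, n = 3), below both time points compared here. Idi1, an isomerase of the same pathway, had measured 139 ± 12.9 on Day 0 and was 731, 679.6 and 818 at 6 hours and 438, 431 and 282 on Day 1.

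Tfrc (ID 22042), the transferrin receptor that brings iron into the cell, measured 627, 392 and 589 at 6 hours and 113, 93.5 and 72.9 on Day 1 (log2 fold change -2.52 ± 0.22, adjusted p = 0.000714). In the probe sets used it was the largest fall among the genes tested. Each of its 4 probe sets fell, the one with the highest level by a log2 fold change of -1.74, and 6 hours replicate 2 was the lowest of its time point while above every array of Day 1. Lrp8 (ID 16975), a receptor of apolipoprotein E and reelin, measured 122, 96.3 and 141 at 6 hours and 42.9, 36.6 and 13.6 on Day 1 (log2 fold change -2.09 ± 0.40, adjusted p = 0.00934). Mfsd2a (ID 76574), a transporter of lysophosphatidylcholine, measured 199.5, 156 and 184 at 6 hours and 66.8, 67.6 and 38.3 on Day 1 (log2 fold change -1.68 ± 0.22, adjusted p = 0.00305), and Atp10d (ID 231287), a phospholipid flippase, 90.8, 82.7 and 136 at 6 hours and 32.7, 23.0 and 25.9 on Day 1 (log2 fold change -1.90 ± 0.21, adjusted p = 0.00167). Their Day 1 values were low, and with values below 50 raised to 50 the log2 changes were -1.24 for Lrp8, -1.55 for Mfsd2a and -1.01 for Atp10d. Atp10d was not tested without 6 hours replicate 3, as its level then lay under 100. Glipr1 (ID 73690), of the CAP superfamily of secreted proteins, measured 178, 278 and 218 at 6 hours and 58.7, 49.4 and 31.7 on Day 1 (log2 fold change -2.29 ± 0.25, adjusted p = 0.00162). Sema4f (ID 20355), a transmembrane semaphorin, measured 264, 244 and 284 at 6 hours and 78.1, 48.1 and 49.4 on Day 1 (log2 fold change -2.21 ± 0.19, adjusted p = 0.000687). Tafa5 (ID 106014), a secreted chemokine-like peptide, measured 199.7, 261 and 148 at 6 hours and 86.8, 68.7 and 43.0 on Day 1 (log2 fold change -1.64 ± 0.28, adjusted p = 0.00695). The arrays did not overlap for any of these genes.

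Genes known to respond to growth factors, tension and serum did not share a direction. Ccn2 (ID 14219), connective tissue growth factor and a target of YAP and TAZ as well as of TGF-β, measured 1065, 1321 and 1169 at 6 hours and 301, 298 and 376 on Day 1 (log2 fold change -1.87 ± 0.13, adjusted p = 0.00028). Its relative Ccn1 did not pass (-0.25 ± 0.10). Tagln (ID 21345), transgelin, an actin-binding protein known from smooth muscle, measured 319, 557 and 434 at 6 hours and 143, 128 and 106 on Day 1 (log2 fold change -1.77 ± 0.21, adjusted p = 0.00213), while Acta2, smooth muscle actin, did not pass (-0.14 ± 0.09). Tubb3 (ID 22152), a β-tubulin best known from neurons, measured 1063, 1207 and 905 at 6 hours and 448, 309 and 224 on Day 1 (log2 fold change -1.74 ± 0.24, adjusted p = 0.00335). Ccn2, Tagln and Tubb3 had all been lower on Day 0, at 256 ± 4.26, 36.7 ± 8.61 and 194 ± 37.6 (mean ± SD, n = 3). Among the immediate early genes 7 of 23 tested rose and 3 fell (between 4 (without 6 hours replicate 1) and 9 (without 6 hours replicate 2) rose when 1 array was left out). Egr1 (ID 13653) measured 646, 911 and 769 at 6 hours and 1585, 1639.9 and 1453 on Day 1 (log2 fold change 1.02 ± 0.14, adjusted p = 0.00324), Atf3 (ID 11910), also an ATF4 target, rose by 1.08 ± 0.13 and Klf4 (ID 16600) by 0.76 ± 0.12. Fosl1 (ID 14283) (-0.71 ± 0.17) and Dusp5 (ID 240672) (-0.60 ± 0.12) fell, and both calls were lost without 6 hours replicate 1. Of 28 tested actin and SRF target genes 6 fell and 2 rose (median -0.18), while 19.4% of all tested genes fell and 12.4% rose. Of the 28, 12 fell and 5 rose without 6 hours replicate 2, and 1 fell and none rose without 6 hours replicate 1 or Day 1 replicate 2. Without 6 hours replicate 3 or Day 1 replicate 1 the falls were 2, and without Day 1 replicate 3 there was 1. Pdlim7 (ID 67399) fell in the probe set used (-0.68 ± 0.16), a call lost without 6 hours replicate 1 or Day 1 replicates 2 or 3, and had a log2 fold change of 0.21 in the one with the highest level.

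Igf2 (ID 16002), an insulin-like growth factor that myoblasts make as they differentiate, measured 4.72, 7.09 and 6.11 at 6 hours and 96.9, 107 and 122 on Day 1 (log2 fold change 4.20 ± 0.16, adjusted p = 3.94e-05). As its 6 hours values lay at the floor, the change was 1.11 with values below 50 raised to 50, and its level on Day 0 had been 75.8 ± 8.97 (mean ± SD, n = 3). Igfbp5 (ID 16011), which binds it, measured 766, 581 and 736 at 6 hours and 1015, 1076 and 1115 on Day 1 (log2 fold change 0.63 ± 0.13, adjusted p = 0.0111). Fst (ID 14313), follistatin, which binds activin and myostatin, measured 22.4, 27.4 and 25.9 at 6 hours and 116, 117 and 124 on Day 1 (log2 fold change 2.24 ± 0.11, adjusted p = 7.80e-05), and the activin subunit Inhbb (ID 16324) rose by 1.38 ± 0.22. Cxcl12 (ID 20315), a chemokine, measured 102, 119 and 86.6 at 6 hours and 347, 315 and 533 on Day 1 (log2 fold change 1.93 ± 0.21, adjusted p = 0.00162) and Cxcl5 (ID 20311) 13.2, 22.2 and 10.7 at 6 hours and 111, 91.1 and 131 on Day 1 (log2 fold change 2.91 ± 0.26, adjusted p = 0.000833). Socs3 (ID 12702) rose by 0.83 ± 0.13, and Ptgs2 (ID 19225), the inducible cyclooxygenase, fell (-0.76 ± 0.11). Itgb1bp2 (ID 26549), melusin, an integrin-binding protein of striated muscle, measured 16.6, 13.9 and 23.1 at 6 hours and 149, 209 and 243 on Day 1 (log2 fold change 3.49 ± 0.23, adjusted p = 0.000262). With values below 50 raised to 50 the changes of Fst, Cxcl5 and Itgb1bp2 were 1.25, 1.14 and 1.97. In the TGF-β and BMP list 9 of 28 tested fell, the Id genes and Ccn2 among them, and 3 rose, and the number that fell lay between 4 (without 6 hours replicate 1) and 12 (without 6 hours replicate 2) when 1 array was left out, with 6 rising without 6 hours replicate 2.

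Genes of the extracellular matrix moved in both directions, with 6 of 31 tested rising and 11 falling (between 7, without 6 hours replicate 1 or 3 or Day 1 replicate 2, and 16, without 6 hours replicate 2, fell when 1 array was left out). Dcn (ID 13179), the small proteoglycan decorin, measured 58.8, 58.0 and 51.8 at 6 hours and 541, 536 and 751 on Day 1 (log2 fold change 3.42 ± 0.15, adjusted p = 4.53e-05). Its Day 0 level had been 498 ± 24.2 (mean ± SD, n = 3). Ogn (ID 18295), a related proteoglycan, rose by 1.34 ± 0.16, and Col6a1 (ID 12833), of collagen VI, measured 186, 188 and 243 at 6 hours and 446, 440.1 and 545 on Day 1 (log2 fold change 1.22 ± 0.14, adjusted p = 0.00214). Tnc (ID 21923), tenascin C, measured 592, 552 and 666 at 6 hours and 264, 238 and 197 on Day 1 (log2 fold change -1.38 ± 0.13, adjusted p = 0.00112). The basement membrane collagen IV genes Col4a2 (ID 12827) (-1.10 ± 0.13) and Col4a1 (ID 12826) (-0.92 ± 0.11) both fell, with no overlapping arrays. Col6a2 rose like Col6a1 (1.22 ± 0.16), but Col6a3 fell (-0.73 ± 0.16), a call lost without 6 hours replicates 1 or 3 or Day 1 replicates 2 or 3. The main fibrillar collagens Col1a1 (0.35 ± 0.26), Col1a2 (-0.23 ± 0.10) and Col3a1 (0.35 ± 0.17) did not pass. Dcn and Cd34 were the fibroblast markers that reached 100, and both rose, Cd34 from 189, 224 and 241 to 334, 279.5 and 297 (0.48 ± 0.12), a call lost without 6 hours replicate 1 or Day 1 replicates 1, 2 or 3. The summed level of the 10 markers ran from 294 to 343 at 6 hours and from 865 to 1127 on Day 1, and 7 of them were under 10 at each time point. Their part in the change of the matrix genes was not tested. Of the proteases, Adamts5 (ID 23794) measured 28.2, 33.9 and 22.9 at 6 hours and 119, 109 and 166 on Day 1 (log2 fold change 2.21 ± 0.19, adjusted p = 0.000773, or 1.37 with low values raised) and Mmp2 (ID 17390) rose by 0.79 ± 0.12. Timp3 (ID 21859) fell (-1.21 ± 0.11, and -0.37 in its probe set with the highest level), as did Plaur (ID 18793), the urokinase receptor (-0.66 ± 0.10).

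In the FOXO list 10 of 14 tested genes rose and 2 fell, with a median of 0.36. Fbxo32 (ID 67731), the ubiquitin ligase atrogin-1, measured 114, 126 and 116 at 6 hours and 241, 239 and 309.6 on Day 1 (log2 fold change 1.14 ± 0.13, adjusted p = 0.00177), and Ddit4 (ID 74747) and Sesn1 (ID 140742), which restrain mTORC1, rose by 0.98 ± 0.12 and 0.93 ± 0.12. The probe sets of Fbxo32 (0.44) and Sesn1 (0.44) with the highest level did not pass. Pdk4 (ID 27273), a kinase that spares glucose, fell, from 104, 116 and 118 to 61.3, 51.2 and 48.1 (log2 fold change -1.08 ± 0.12, adjusted p = 0.00179). Between 5 (without Day 1 replicate 2) and 10 (without 6 hours replicate 2) rose when 1 array was left out. In the lysosome and autophagy list 8 of 26 rose and 1 fell, but 3 rose without 6 hours replicate 1 or any of the Day 1 arrays, 4 without 6 hours replicate 3, and 13 without 6 hours replicate 2, where 3 fell. Map1lc3a (ID 66734), an LC3 protein of the autophagosome, measured 474, 668 and 653 at 6 hours and 1232, 1358 and 1385 on Day 1 (log2 fold change 1.16 ± 0.15, adjusted p = 0.00255). Of 17 tested p53 targets 6 rose and 3 fell, with Bbc3 (ID 170770) (1.03 ± 0.17) beside Cdkn1a and Gadd45a on one side and Aen (ID 68048) (-0.76 ± 0.12), Ccng1 (ID 12450) (-0.57 ± 0.11) and Mdm2 (ID 17246) (-0.40 ± 0.12) on the other. The call for Ccng1 was lost without 6 hours replicate 1, and that for Mdm2 in every fit but the one without 6 hours replicate 2, where 6 of the 17 fell.

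In the NRF2 list 1 of 21 tested genes rose, its factor, 6 fell and 14 did neither, with a median of -0.07. Nfe2l2 (ID 18024), which encodes NRF2, measured 1276, 1528 and 1407 at 6 hours and 2108, 2100.2 and 2367 on Day 1 (log2 fold change 0.64 ± 0.11, adjusted p = 0.0064). Gclc (ID 14629) and Gclm (ID 14630), the subunits of an enzyme in glutathione synthesis, fell (-0.68 ± 0.09 and -0.81 ± 0.11). Srxn1 (ID 76650), sulfiredoxin, measured 255, 205 and 243 at 6 hours and 131, 116 and 102 on Day 1 (log2 fold change -1.02 ± 0.13, adjusted p = 0.00281). Txnrd1 (-0.67 ± 0.12) and Gsr (-0.68 ± 0.10) fell as well and no array overlapped, whereas Hmox1 (0.11 ± 0.12) and Sod1 (-0.16 ± 0.19) did not pass. Between 5 and 6 fell in the fits that left out 1 array, and 3 rose without 6 hours replicate 2. Cytosolic chaperones fell in 8 of 15 tested and rose in 1, Hspb2 (ID 69253), which measured 58.9, 81.7 and 56.7 at 6 hours and 135, 151 and 138 on Day 1 (log2 fold change 1.12 ± 0.15, adjusted p = 0.00315). Hsph1 (ID 15505) measured 1956, 1589 and 2073 at 6 hours and 1150.3, 1019 and 1006 on Day 1 (log2 fold change -0.82 ± 0.13, adjusted p = 0.00494), and Dnajb1 (ID 81489) fell too (-0.48 ± 0.09), a call lost without 6 hours replicate 1 or Day 1 replicate 2. In those same fits the falls of the list came to 1, against 5 without Day 1 replicate 1 and 4 without Day 1 replicate 3. Of 19 tested hypoxia-inducible genes 6 rose and 1 fell (4 fell without 6 hours replicate 2). Vegfa (ID 22339) measured 210.1, 196 and 201 at 6 hours and 367, 337 and 420.0 on Day 1 (log2 fold change 0.88 ± 0.11, adjusted p = 0.00241), Egln3 (ID 112407) rose by 0.91 ± 0.10 and Ndrg1 (ID 17988) by 0.77 ± 0.09 (0.45, which did not pass, in its probe set with the highest level), and Lox (ID 16948), lysyl oxidase, fell (-0.78 ± 0.10). The glucose transporter Slc2a1 (-0.26 ± 0.11) and Pdk1 (0.23 ± 0.22) did not pass.

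Of 15 tested genes of intermediate filaments and the nuclear envelope, 4 fell and 1 rose. The number that fell was 9 without 6 hours replicate 2, 1 without 6 hours replicate 1 and 2 without Day 1 replicate 2 or 3. Lmnb1 (ID 16906), the B-type lamin, measured 861, 769.7 and 920.1 at 6 hours and 407, 483 and 381 on Day 1 (log2 fold change -1.01 ± 0.12, adjusted p = 0.00239), and the keratin Krt19 (ID 16669) (-1.00 ± 0.29) and the A-type lamin gene Lmna (ID 16905) (-0.56 ± 0.11) fell too, calls lost without 6 hours replicates 1 or 3 or Day 1 replicates 2 or 3 and without 6 hours replicate 1, respectively. Syne1 (ID 64009), which encodes the nuclear envelope protein nesprin-1, measured 39.0, 65.2 and 38.5 at 6 hours and 109, 129 and 114 on Day 1 (log2 fold change 1.35 ± 0.20, adjusted p = 0.00466). Of 14 tested tubulins and microtubule proteins 5 fell, among them Map1b (ID 17755) (-1.11 ± 0.18, and -0.18 in its probe set with the highest level) and Mapre1 (ID 13589) (-0.80 ± 0.14), and 1 rose, Kif5b (ID 16573), a heavy chain of kinesin (0.67 ± 0.15), a call lost without 6 hours replicate 1 or Day 1 replicates 2 or 3. In the probe sets with the highest level 3 of this list fell. Of 16 tested YAP and TAZ targets and partners 2 rose and 3 fell, which is near the shares of all tested genes (12.4% and 19.4%). The counts were 5 and 5 without 6 hours replicate 2, and 1 fell without 6 hours replicate 1 or Day 1 replicate 2 or 3. F3 (ID 14066), tissue factor, measured 48.2, 58.1 and 45.0 at 6 hours and 115, 92.4 and 142 on Day 1 (log2 fold change 1.19 ± 0.17, adjusted p = 0.00407), and Yap1 (ID 22601) itself fell (-0.60 ± 0.13), a call lost without 6 hours replicate 1 or Day 1 replicates 2 or 3 and not shared by its probe set with the highest level (-0.14). ERK feedback genes gave 3 rises and 1 fall of 7, with Etv5 (ID 104156) (0.91 ± 0.18) and Spred1 (ID 114715) (0.67 ± 0.13, but 0.03 in its probe set with the highest level) on one side and Dusp4 (ID 319520) (-0.59 ± 0.15), whose call was lost without 6 hours replicates 1 or 3 or Day 1 replicates 2 or 3, on the other. Of 14 tested chemokine, cytokine and prostaglandin genes 6 rose and 1 fell (3 fell without 6 hours replicate 2 and 2 without 6 hours replicate 1). The receptor gene Osmr (ID 18414) measured 42.3, 38.9 and 61.7 at 6 hours and 123, 113 and 230.1 on Day 1 (log2 fold change 1.66 ± 0.29, adjusted p = 0.00689) and Il33 (ID 77125), an alarmin, 51.4, 25.8 and 43.7 at 6 hours and 101, 125 and 175 on Day 1 (log2 fold change 1.75 ± 0.28, adjusted p = 0.00556). Of 9 tested insulin-like growth factor genes 4 rose and none fell, with Igf1r (0.65 ± 0.13) and Igf2r (0.82 ± 0.25) beside Igf2 and Igfbp5. The call for Igf1r was lost without 6 hours replicate 1 or Day 1 replicate 2 and that for Igf2r in every fit but the one without 6 hours replicate 3. Of this list 2 rose without 6 hours replicate 1 or Day 1 replicate 2, and 1 fell without 6 hours replicate 2.

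The last lists are set beside the 12.4% of all tested genes that rose and the 19.4% that fell. Of 43 tested genes of oxidative phosphorylation 2 rose (Ndufb5 and Cox6c) and none fell, with a median of 0.20. This depended on 1 array, since 22 rose and 1 fell without 6 hours replicate 2, while at most 1 rose without any other array. Of 31 proteasome subunits 2 fell (Psmd1 and Psmd3) and none rose, while 3 fell and 2 rose without 6 hours replicate 2, and none fell without 6 hours replicate 1 or Day 1 replicate 2. Glycolysis and glycogen gave 2 rises and 1 fall of 16, with Pfkm (ID 18642), the muscle phosphofructokinase, measuring 434, 391 and 473 at 6 hours and 655, 688 and 868 on Day 1 (log2 fold change 0.76 ± 0.14, adjusted p = 0.00758). In this list 5 fell without 6 hours replicate 2 and none without any other single array, and 1 rose without 6 hours replicate 1. In the Notch pathway 1 of 15 rose, Notch3 (ID 18131), which measured 142, 167 and 177 at 6 hours and 339.9, 331 and 309.6 on Day 1 (log2 fold change 1.02 ± 0.11, adjusted p = 0.00179), while 2 rose and 4 fell without 6 hours replicate 2. In the Wnt pathway 2 of 7 rose, of which Porcn (ID 53627), which lipidates Wnt proteins, measured 26.2, 49.8 and 54.1 at 6 hours and 139, 149 and 201 on Day 1 (log2 fold change 1.96 ± 0.27, adjusted p = 0.00374, or 1.65 with low values raised). Without 6 hours replicate 1 or 3 or Day 1 replicate 1 or 2 only 1 of the 7 rose, and without 6 hours replicate 2, 3 rose and 1 fell. Of 9 tested clock genes 1 rose and 2 fell, but none fell without 6 hours replicate 1 or Day 1 replicate 2, 1 fell without 6 hours replicate 3 or Day 1 replicate 1 or 3, and 2 rose without 6 hours replicate 2. Dbp (ID 13170), an output gene of the clock, measured 168, 142 and 113 at 6 hours and 249.6, 229 and 337 on Day 1 (log2 fold change 0.95 ± 0.19, adjusted p = 0.0113), and Arntl (ID 11865), a core activator, 121, 104 and 133 at 6 hours and 122, 93.2 and 109 on Day 1, with overlapping arrays (-0.14 ± 0.14, adjusted p = 0.456). The time of day at which the arrays were made is not given, so time of day and time since induction cannot be told apart. Of 7 tested interferon response genes 3 rose and 1 fell, but none was called without 6 hours replicate 1, 5 rose without 6 hours replicate 2, and 1 rose and none fell without any other single array.

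The interval from Day -1 to Day 0, before induction, shares no array with the comparison and was fitted in the same way. There, 2144 of 7366 genes rose (29.1%) and 2055 fell (27.9%). Of the 840 genes that rose from 6 hours to Day 1 and were tested in both, 641 had also risen before induction (76.3% of the 840, and 31.4% of the 2039 that rose then), and 41 had fallen. Of the 1387 that fell, 971 had also fallen (70.0% of the 1387, and 49.3% of the 1968 that fell then), and 34 had risen. By list, 23 of the 28 sarcomere genes tested in both rose in both intervals, as did 22 of the 26 ATF4 genes. In the falling direction this held for 28 of 44 replication genes, 27 of 53 mitosis genes, 16 of 27 cholesterol genes and 29 of 65 ribosome biogenesis genes. Over all 7111 genes tested in both, 641 rose in both intervals and 971 fell in both. From Day -1 to Day 0 alone, 28 of these sarcomere genes and 23 of these ATF4 genes rose. In that interval 37 of the replication, 49 of the mitosis, 24 of the cholesterol and 35 of the ribosome biogenesis genes fell. Levels of 2 genes are given for illustration. Mymk had a level of 66.8 ± 22.7 on Day -1, 901 ± 27.7 on Day 0, 501 ± 40.2 at 6 hours and 1746 ± 213 on Day 1 (mean ± SD, n = 3). Tfrc had 707 ± 169.9, 196 ± 26.8, 536 ± 126 and 93.3 ± 20.3 at the same time points. Mymk was thus higher at the end of each interval than at its start and Tfrc lower, and in both genes 6 hours lay on the other side of Day 0.

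Set beside the 8 time points, the lists differed in where 6 hours stood. With 6 hours as the reference, the sarcomere genes had a median log2 level of -2.81 on Day -1, of 0.48 a day later, and of 1.58 and 2.74 on Day 1 and Day 2. The mitosis genes had 0.35, -0.74, -0.43 and -1.95 at the same time points. For cholesterol synthesis it was -0.07, -0.94, -0.58 and -1.12, and for DNA replication 0.17, -0.54, -0.52 and -1.66. Ribosome biogenesis was at 0.23, 0.00, -0.44 and -0.50. For sterol synthesis, DNA replication, mitosis and the ATF4 list the value on Day 1 lay between those of 6 hours and Day 0. Neighbouring intervals share the arrays of 6 hours or Day 1, and the probe sets were chosen on the change from 6 hours to Day 1, so these medians are a description.

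**Figure D5:**
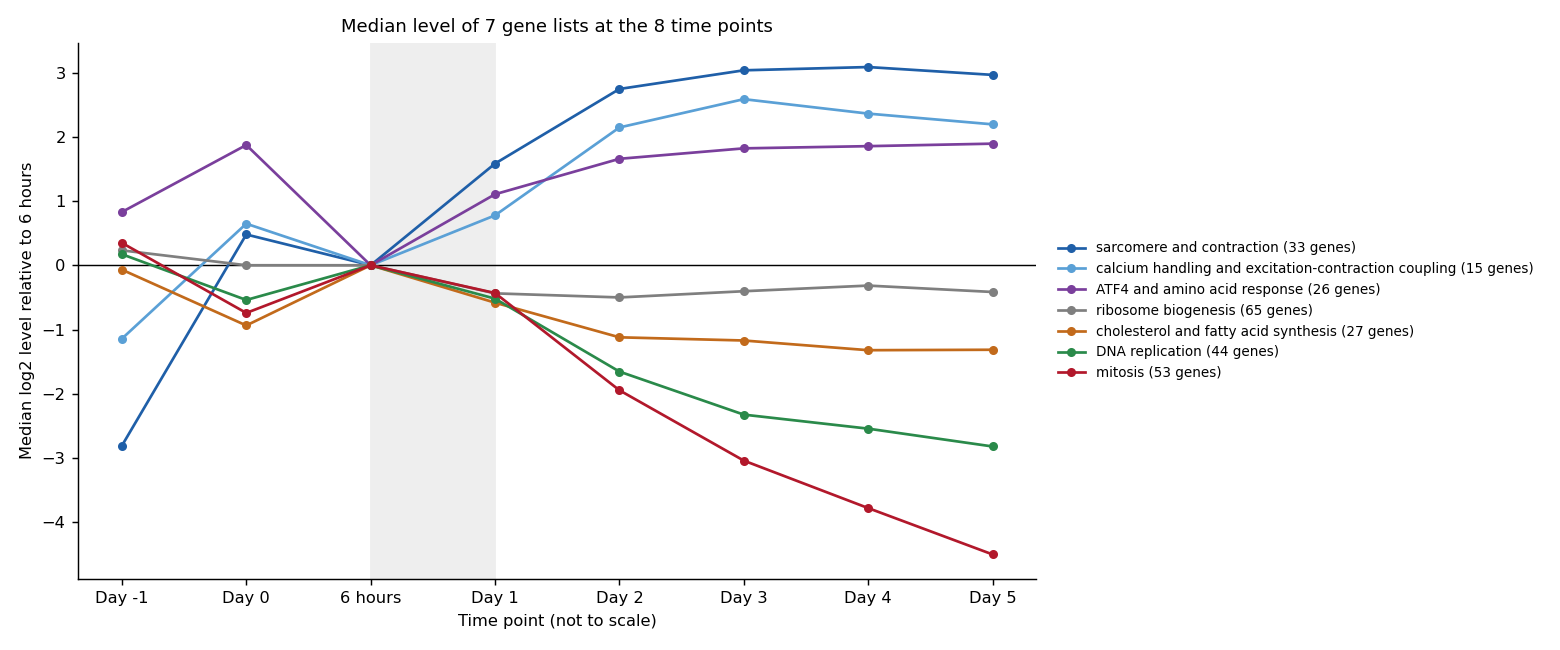
Median log2 level of 7 lists at the 8 time points relative to 6 hours, over the genes tested in the comparison of 6 hours with Day 1 (shaded), on an axis of time that is not to scale. Sarcomere genes lie lowest on Day -1 (-2.81) and continue upward after Day 1, the ATF4 list has its lowest point at 6 hours, and mitosis and replication genes fall further after Day 1.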

How the data were processed

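RNA of C2C12 cells, extracted with RNeasy, was hybridized to Affymetrix mouse 430 version 2 arrays, 3 at each of 8 time points. The deposited values are intensities: the authors ran GC-RMA, took its log2 output back to the linear scale and set each array's trimmed mean (2%) to 150. MAS5 is also named in the submitters' processing notes, without its role or version. Probe sets were named by the platform annotation. Of 45101, 34958 had 1 gene symbol, 932 several and 9211 none, and genes were counted and named only from those with 1. For 34754 the gene was found by its identifier in RefSeq's table.

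Log2 intensities of the 6 arrays from 6 hours and Day 1 were fitted with limma 3.58.1 (lmFit and eBayes, R 4.3.3). Probe sets entered if their mean reached 100 at either time point, and p-values were adjusted over all 12443. The same fit was made for Day -1 and Day 0, which share no array with the main comparison. On simulated data of 12443 probe sets for the comparison of 6 hours with Day 1, 17 of 67 changes of 0.5, 64 of 67 of 1 and 66 of 66 of 2 on the log2 scale were recovered, with 9 calls among 12243 unchanged. The simulated noise was independent between probe sets, with no shift shared by an array. Far fewer probe sets were changed than the 25.9% called in the data. The recovery and the false calls therefore do not carry over to these arrays. The number of arrays limits the precision, and depth has no equivalent here.

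Named genes are the 12 largest rises and falls among called genes whose arrays do not overlap and whose higher mean is at least 100, a list of key genes of myogenesis, and, for each list, at most 3 risers and 3 fallers taken by adjusted p. Other members were chosen after their values were seen. The time points, lists and motifs were chosen with earlier results of these data known. Alternatives were another normalization, other level filters and treatments of low values, another choice of probe set, a prior with an intensity trend, the replicate number as a block, 1 fit over the 24 arrays, and leaving out each array.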

Additional observations from a re-analysis of the deposited data

How the results depend on the processing

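The direction of the changes called in the genes described held under the alternatives except in 4, whose probe sets with the highest level gave log2 fold changes of 0.050 for Cdh2, 0.21 for Pdlim7, -0.022 for Hnrnpa1 and -0.39 for Atp2a2. Of the log2 fold changes recomputed for genes, 3862 kept their side of the threshold, 390 lost it and 26 gained it. Most of these losses came from leaving out 1 array. They were 73, 1 and 38 without 6 hours replicates 1, 2 and 3, and 37, 62 and 49 without Day 1 replicates 1, 2 and 3. Of the other losses, 82 came with no level filter (Lrp8, Tafa5, Id1 and Id3 among them) and 27 with the highest-level probe set. The fit of all 24 arrays lost 12 (among them Tpx2, Mki67, Top2a, Mcm5, Mcm6, Kirrel, Eya1 and Krt19) and quantile normalization 6 (Eya1, Mdm2, Psmd3 and Krt19 among them). Of the recomputed list medians, 717 moved by less than the spread between replicates and 33 by more. The median of the Wnt list turned from 0.25 to -0.08 with a minimum level of 200. A fit to all 24 arrays called 3388 probe sets, against 3217 in the fit of 6, but 4 falling mitosis genes in place of 28, and the cause was not tested. Totals were 3048 with quantile normalization, 3236 with values below 50 raised to 50, 3282 with 16 added, 3349 with an intensity trend and 2546 with a minimum level of 200. After quantile normalization 46.4% of the called probe sets were higher on Day 1, against 37.2%, and the median of all probe sets moved from -0.07 to -0.02. With no level filter 2124 were called, 1225 of them lower, and with a further threshold of 2-fold 385 (258 higher and 127 lower, in 194 and 90 genes).

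Leaving out 1 array gave between 1091 and 6107 called probe sets, 492 to 2354 higher and 599 to 3753 lower, and between 367 and 1701 genes higher and 451 and 2406 lower. The lowest counts came without 6 hours replicate 1 and the highest without 6 hours replicate 2, and 1991 probe sets were called without 6 hours replicate 3 and 1701, 1355 and 1648 without Day 1 replicates 1, 2 and 3. The cause was not tested. The 6 fits of Day -1 and Day 0 that left out 1 array gave 3305 to 4375 called genes, against 4199.

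With the replicate number as a block (replicate block), 5130 probe sets were called, 1976 higher and 3154 lower, and 1435 genes were higher. The deviations of same-numbered arrays from their group means correlated at -0.21, 0.60 and 0.60 for replicates 1, 2 and 3. The values for replicates 2 and 3 were the highest of all pairs across the time points. In contrast, 6 hours replicate 1 correlated best with Day 1 replicate 3 (0.42). The main fit left the arrays unpaired, and the cause of the higher counts with a block was not tested.

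Low signal limits the size of the largest fold changes. With values below 50 raised to 50, the log2 fold change of Fgf21 was 2.52 in place of 5.90 and that of Igf2 1.11 in place of 4.20.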
